A study of Mus musculus with 14 samples.

Results

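The comparison described here is the response of scratch-wounded mouse fibroblasts to autologous micrograft (AMG) at 12 h. It rests on 2 of the 14 libraries of the series, Untreated 12h replicate 1 and AMG-treated 12h replicate 1. A gene was a member when its mean normalised count in these 2 libraries was at least 10, which held for 13370 of the 43472 genes listed. The gene just below that limit had a mean of 9.998 and the gene just above it 10.03. Primary fibroblasts came from the tail ends of C57BL/6 mice and were grown in medium with fetal bovine serum, and a scratch assay served as the wound model. The treated cells received AMG, which is mouse skin disrupted in buffer, filtered and diluted in growth medium, and the untreated cells did not. A paper using the 5 h data calls the micrograft solution noncellular. The preparation it describes included a centrifugation to remove cells and debris. The labels name no genetic change in either group and do not say whether 1 or several mice gave the cells or the skin.

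With 1 library a side, no p-value exists for 12 h, and every difference below describes these 2 libraries. The untreated library held 24566873 reads assigned to genes and the treated library 19147864. A level is the deposited normalised count, and a difference is the log2 ratio of treated to untreated after 1 was added to both levels, so that 1 is a doubling and low genes are understated. A range in brackets after a fold is the 95% exact counting interval from the recovered reads and covers counting error only. Values at 5 h from 3 further pairs of libraries (replicates 2, 3 and 4) stand beside those of 12 h, and they were normalised in a separate table. Over the 13370 genes, the SD of those 3 log2 ratios had a median of 0.23 and a 95th percentile of 1.00.

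Fibroblasts close a wound by migrating, dividing and rebuilding matrix. Interferons are cytokines released when cells sense foreign nucleic acid, and type I interferon acts through transcription factors such as Stat2 and Irf9 on a large set of antiviral genes. Matrix metalloproteinases are zinc enzymes that cut collagens, proteoglycans and other matrix proteins, and TIMP proteins inhibit them. The matrix is built of fibrillar collagens, elastic fibres, basement membrane and adhesive proteins, and fibroblasts that pull on it carry bundles of smooth muscle actin.

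At 12 h, 796 genes were higher past 2-fold in the treated library, 5.95% of the genes tested, and 886 were lower past 2-fold, 6.63%. The median over all genes was -0.01, and the middle 50% lay between -0.30 and 0.28. The share of all genes below 0 was not counted, but a median so close to 0 places it near 50%. The upper tail was the longer one, with 123 genes higher and 37 lower past 8-fold. Of the tested interferon genes, 64 of 113 were higher past 2-fold and 0 were lower past 2-fold, with a median of 1.30. Metalloproteinase genes and their partners split into 13 higher and 3 lower of 38, with a median of 0.04. Cell cycle genes were 3 higher and 25 lower of 175, with a median of -0.33. Matrix genes were 11 higher and 26 lower of 143, with a median of -0.34. A limit on the mean admits genes through their high library, which applied to 13 interferon, 3 metalloproteinase and 1 cell cycle members under 10 in the untreated library and to 1 interferon, 1 cell cycle and 2 matrix members under 10 in the treated one. It applied over all genes to 274 under 10 in the untreated and 283 under 10 in the treated library.

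**Figure D1:**
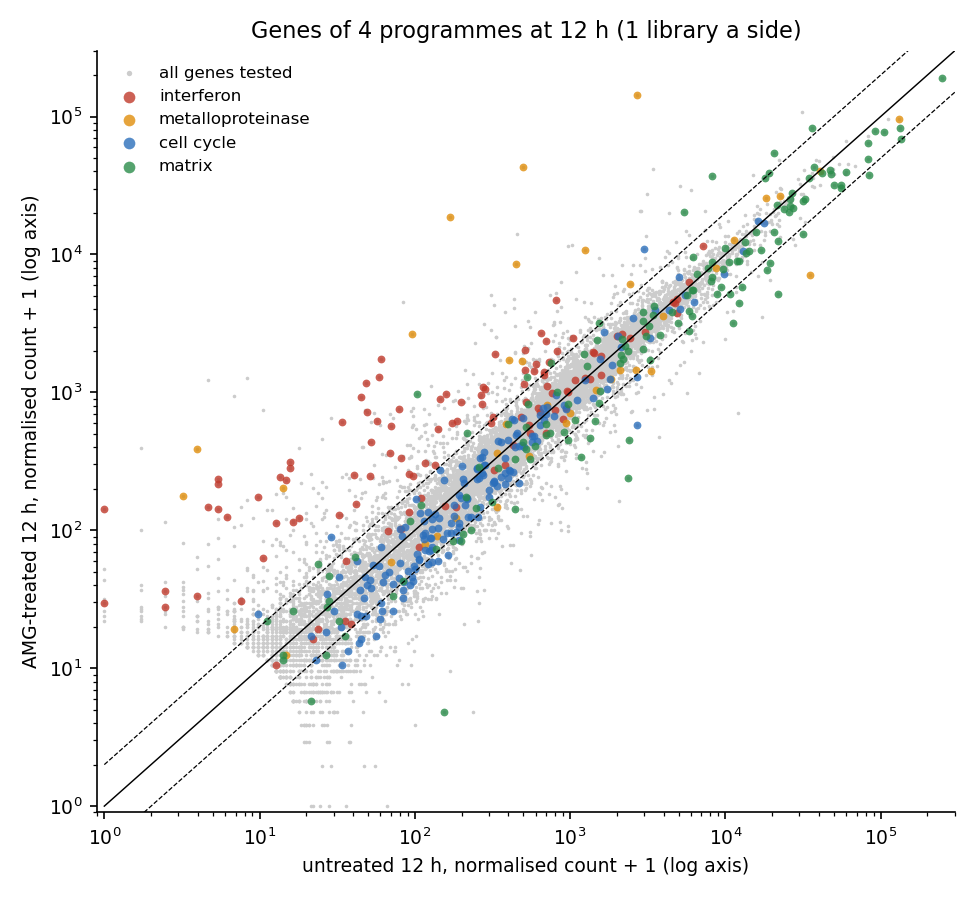
Each point is a gene, placed by its normalised count plus 1 in the untreated library (horizontal, log axis) and in the AMG-treated library (vertical, log axis) at 12 h, with the 13370 tested genes in grey and the programmes in colour. Of the 113 tested interferon genes, 64 lie beyond the upper 2-fold line and 0 beyond the lower one.

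The labelled cell type was checked by markers. All 12 fibroblast markers were tested, and their summed level was 386158 in the untreated and 268842 in the treated library. In replicate 1, with the 12 h libraries included, the sum ran from 365646 to 510552 over the 4 untreated libraries. Over the 4 treated libraries it ran from 240792 to 429081. Of 16 leukocyte and macrophage markers, 12 were tested and 5 were lower past 2-fold. Their sum was 1352 and 610, within 1339 to 2246 and 521 to 1473, with Lyz2 at 899 and 336, the pan-leukocyte gene Ptprc at 5.85 and 1.91 and the T cell gene Cd3e at 0 in both. In bulk RNA, fewer cells of a type and less RNA per cell cannot be told apart. Of 16 keratinocyte markers 4 were tested, with a sum of 634 and 384, and Krt14, Krt1, Krt6a and Dsg3 had 0 reads in both. The cornified envelope genes Sprr1a (9.51 and 41.9) and Ivl (11.7 and 63.8) were higher past 2-fold in the treated library, and the desmosome gene Dsp (561 and 219), the most abundant of the 4, was lower past 2-fold. Endothelial markers summed to 123 and 62.9, skeletal muscle markers to 760 and 374, and cartilage and bone markers to 2408 and 1146. The part of these cell types in the results below was not tested.

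The interferon genes formed the most one-sided of the 4 programmes. Ifit1 (chromosome 19, 34640871 to 34650009, mm10), whose product binds viral RNA, had 59.3 normalised counts in the untreated and 1743 in the treated library, 29.4-fold higher (23.5 to 37.2). Isg15 (chromosome 4, 156199424 to 156200818), a ubiquitin-like modifier, had 43.9 and 931, 21.2-fold higher (16.3 to 28.0). Usp18, the protease that removes Isg15 and dampens the receptor, had 47.6 and 1170.3. Socs3, the other of 5 feedback regulators past 2-fold, had 725 and 1649. The untreated levels of Ifit1, Isg15 and Usp18 were thus under 60 counts.

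Over time, the treated library at 12 h stood apart for these genes. Ifit1 was at 82.6, 32.8, 59.3 and 218 in the untreated libraries of replicate 1 at 1, 5, 12 and 24 h, and at 130.4, 28.6, 1743 and 172 in the treated ones. Isg15 was at 77.3, 136, 43.9 and 142 untreated and 376, 82.8, 931 and 107 treated. The treated library at 12 h was the highest of the 8 for both, and at 24 h the untreated library was the higher one. Irf7, which amplifies type I interferon production, was at 122, 93.4, 157 and 214 untreated and 228, 46.4, 976 and 177 treated.

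**Figure D2:**
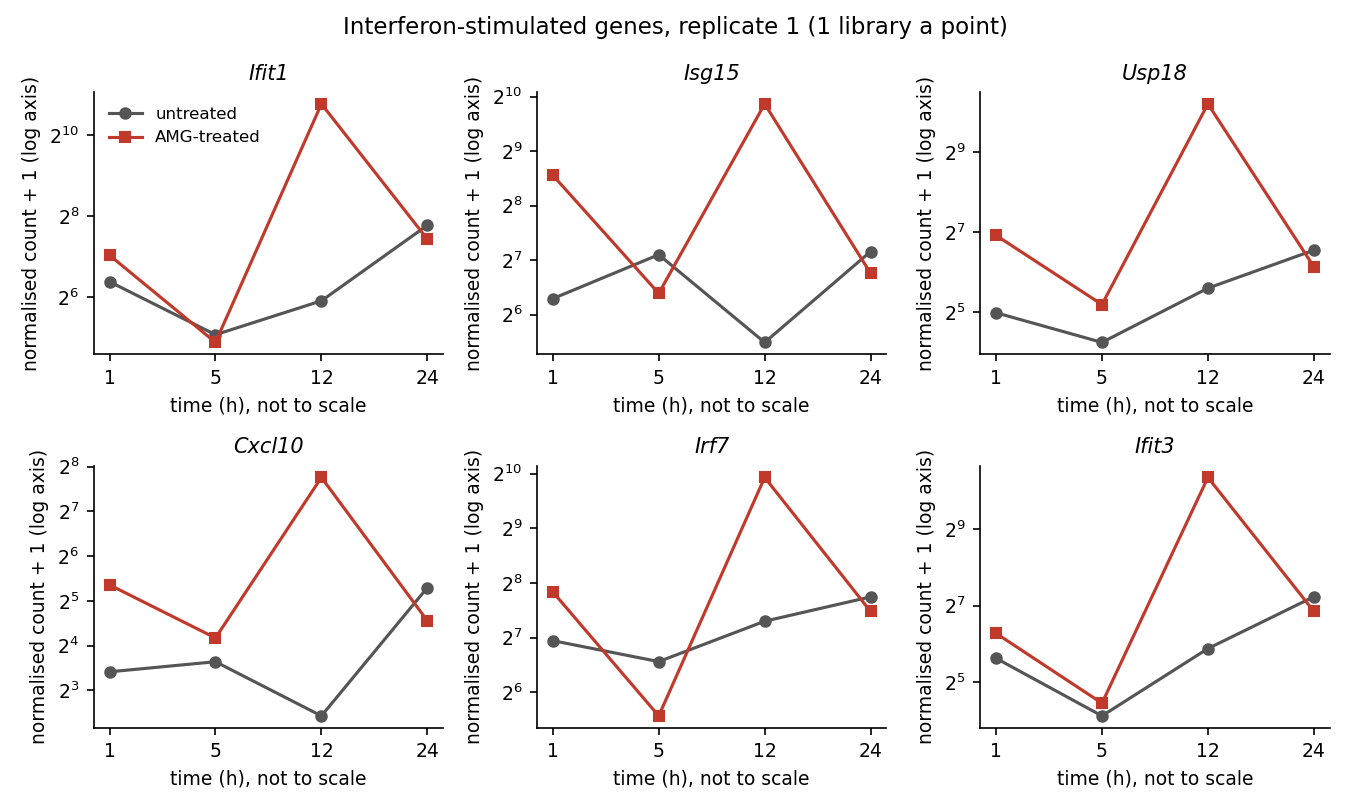
Normalised count plus 1 (log axis) of 6 interferon-stimulated genes at 1, 5, 12 and 24 h in replicate 1, untreated and AMG-treated, 1 library a point. The treated point at 12 h is the highest of the 8 in each panel, for example 1743 for Ifit1.

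Promoter stretches of 4 of these genes are shown because they carry the interferon-stimulated response element, to which Irf9 and its partners bind. They come from RefSeq on build GRCm38.p6, run 5′ to 3′ on the gene's strand and end before the annotated start. Capitals mark the core of the element on either strand, TTTC, any 2 bases, TTTC, and matches may overlap.
Ifit1, chr19:34640769-34640848, plus strand: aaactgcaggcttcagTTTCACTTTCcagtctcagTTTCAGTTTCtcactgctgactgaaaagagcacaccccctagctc
Ifit3, chr19:34583372-34583451, plus strand: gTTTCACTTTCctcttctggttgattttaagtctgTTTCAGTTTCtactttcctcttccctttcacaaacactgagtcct
Isg15, chr4:156200840-156200919, minus strand: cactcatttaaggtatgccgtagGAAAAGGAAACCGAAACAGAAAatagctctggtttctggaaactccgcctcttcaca
Gbp3, chr3:142559964-142560043, plus strand: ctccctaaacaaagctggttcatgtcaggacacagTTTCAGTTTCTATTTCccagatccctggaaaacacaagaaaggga
Isg15 held 3 overlapping matches in its 80 bases and the other stretches held 2 each. Within 250 bases before the start, the core was found in 16 of 48 antiviral effector genes with an entry (33.3%) and in 10 of 12 GBP and IRG genes (83.3%). These list counts were not limited to tested genes, and only 9 GBP and IRG genes were tested. The core was found in 3.46% of all 27025 promoters, in 3.08% of the 9833 of tested genes and in 7.94% of the 529 of genes higher past 2-fold.

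Among the antiviral effectors, 51 of 61 listed genes were tested, 35 were higher past 2-fold and 0 were lower past 2-fold, with a median of 1.76. Of those 51, 9 were under 10 in the untreated library. Cmpk2, a nucleotide kinase, had 4.39 and 236 normalised counts, 53.8-fold higher (24.4 to 148). Rsad2, which encodes viperin, had 3.66 and 148, 40.4-fold higher (16.9 to 126). Mx1, a GTPase that traps viral nucleocapsids, had 0 reads in the untreated library and 30 reads in the treated one, and 28.6 counts there against a floor of 2.20 untreated. All 3 were under 10 counts in the untreated library. Enzymes of the oligoadenylate synthetase family, which activate RNase L, and their relatives differed by 4.73 for Oasl1, 3.27 for Oasl2 and 2.01 for Oas2 on the log2 scale. Their sequences are related and the split of reads among them is uncertain. For 38 of the 51 genes the treated library at 12 h was the highest of the 8 of replicate 1, a place it took for 10.9% of all genes tested.

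The effectors were not uniform. Ifitm3 and Ifitm2, membrane factors that block viral entry, were at 7188 and 11433 and at 4753 and 4419 counts. Ifit2, a neighbour of Ifit1, was at 316 and 659, and its untreated level was above that of Ifit1 and Ifit3. The lowest difference among those tested was that of Ifi27l2a, -0.89 from 38.1 untreated counts.

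GTPases of the GBP and IRG families, which attack vacuoles of intracellular microbes, passed 2-fold higher in 9 of 9 tested genes out of 20 listed, with a median of 2.09. Iigp1 was at 14.6 and 312 counts, Gbp3 at 56.3 and 623, Gbp5 at 9.51 and 61.9 and Irgm1 at 651 and 2715. In each of the 9 the treated library at 12 h was the highest of the 8. Among members under the limit, Gbp6 was at 2.20 and 17.2 and Tgtp2 at 5.85 and 1.91, and Gbp4, Gbp8 and Tgtp1 had 0 reads in both. Several of these genes have close copies, and Igtp and Irgm2 overlap on the same strand, so their values are uncertain.

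Receptors and kinases of the pathway differed little. The receptor chains Ifnar1, Ifnar2, Ifngr1 and Ifngr2 differed by 0.22, 0.09, 0.08 and 0.34, and the kinases Jak1, Jak2 and Tyk2 by -0.06, -0.09 and 0.19. Of the listed ligands, Ifnb1 had 0 reads in the untreated and 2 in the treated library, and Ifna4 and Ifnk had 0 in both. Ligand transcripts were thus at or under the floor of 3 reads.

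The transcription factors divided, with 5 of 11 tested higher past 2-fold. Stat2 was at 510.1 and 2012 counts and Irf9 at 580.3 and 1432, both higher past 2-fold. Irf7 differed by 2.63 and Nlrc5, an activator of class I genes, by 2.77. Irf1, an early target of interferon gamma, was at 553 and 503, and Irf2, Irf3, Irf5 and Irf8 lay between -0.27 and 0.04.

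Sensors of foreign RNA and DNA were higher past 2-fold in 8 of 11 tested genes. Zbp1, which binds left-handed nucleic acid, was at 14.6 and 283 counts. Ifi203 and Ifi205, of a DNA-binding family with close copies, were at 32.9 and 605 and at 1.46 and 35.3, the latter on 2 untreated reads, and Ifi203 overlaps Mndal. The RNA helicases Dhx58, Ifih1 and Ddx58 differed by 2.27, 1.73 and 1.26, while Tmem173, the adaptor STING, was at 1344 and 1259. Of 4 listed interferon-induced chemokines 2 were tested, both under 10 in the untreated library. Cxcl10, which draws activated T cells, had 4.39 and 215, 49.1-fold higher (22.2 to 135), and Ccl5 had 0 untreated reads and 141 treated counts, at least 64.2-fold higher against the floor of 3 reads.

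Class I antigen presentation had a median of 0.11 over 17 tested genes, and 3 were higher past 2-fold. These were H2-T10 (13.9 and 229 counts), H2-T22 (813 and 4637) and H2-Q4 (31.5 and 128), of a family with similar sequences in which reads can be misplaced. The classical genes H2-K1 and H2-D1 differed by 0.50 and 0.30, the light chain B2m by 0.11 and the immunoproteasome subunit Psmb9 by -0.69.

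The interferon difference varied among times and among pairs of libraries. The antiviral effectors had medians of 0.20 (1 h), 0.31 (5 h), 1.76 (12 h) and -0.39 (24 h) in replicate 1. In replicates 2, 3 and 4 at 5 h the same genes had medians of 0.08, 0.04 and 0.97. The log2 ratio of Ifit1 in those pairs was 0.07, 0.82 and 3.40, that of Isg15 1.00, 0.34 and 3.66 and that of Usp18 0.10, -0.17 and 3.73. Replicate 4 was the highest of the 3 pairs for each. With 1 pair at 12 h, a difference of that time and a difference of that pair of cultures cannot be told apart.

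The inducible metalloproteinases combined large ratios with very high levels. Mmp3 (chromosome 9, 7445822 to 7455975), stromelysin 1, had 2688 normalised counts in the untreated and 144047 in the treated library, 53.6-fold higher (51.9 to 55.4). Mmp13 (chromosome 9, 7272514 to 7283331), a collagenase, had 495 and 42800.2, 86.4-fold higher (80.1 to 93.3). Mmp10 (chromosome 9, 7502352 to 7510240), stromelysin 2, had 168 and 18594, 110.5-fold higher (97.0 to 126). Each of these intervals was narrow beside the difference. Mmp9, gelatinase B, had 95.1 and 2661, 28.0-fold higher (23.5 to 33.6).

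Promoter stretches of the 3 most abundant of these genes are shown for the AP-1 site close to their starts. Capitals mark TGANTCA, the core site of Fos and Jun dimers, on either strand (RefSeq, GRCm38.p6, 5′ to 3′ on the gene's strand).
Mmp3, chr9:7445741-7445820, plus strand: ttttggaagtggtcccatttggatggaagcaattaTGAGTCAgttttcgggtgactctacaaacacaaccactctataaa
Mmp13, chr9:7272434-7272513, plus strand: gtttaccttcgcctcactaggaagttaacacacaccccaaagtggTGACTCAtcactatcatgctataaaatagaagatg
Mmp10, chr9:7502244-7502323, plus strand: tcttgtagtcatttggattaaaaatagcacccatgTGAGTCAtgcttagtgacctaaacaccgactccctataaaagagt
The match began 46 bases before the start in Mmp3, 35 in Mmp13 and 63 in Mmp10. Within 250 bases before the start it was found in 7 of the 9 inducible metalloproteinase genes with an entry (77.8%). These 9 include Mmp7 and Mmp8, which had 0 reads in both libraries, and Mmp7 is among the 7. The match was found in 7.82% of all promoters and in 5.80% of those of tested genes. Among genes past 2-fold it was found in 14.2% of the higher and 8.28% of the lower ones.

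In replicate 1, Mmp3 and Mmp13 were higher in the treated library at each of the 4 times. The log2 ratio of Mmp3 was 5.74 at 12 h and 7.07 at 24 h, and that of Mmp13 was 6.43 and 6.10. Mmp3 was at 4029.8, 6529, 2688 and 1278 untreated at 1, 5, 12 and 24 h and at 17282, 37018, 144047 and 171791 treated. Mmp13 was at 1162, 1260.5, 495 and 499 untreated and at 4769.6, 15585, 42800.2 and 34312 treated. For both genes the untreated level at 12 h was below that at 5 h and the treated level was above it. In the 3 pairs at 5 h the log2 ratio of Mmp13 was 2.69, 2.03 and 2.06 (mean 2.26, SD 0.37, n = 3), beside 6.43 at 12 h. That of Mmp9 was 6.68, 3.62 and 6.10, beside 4.79 at 12 h, so its 12 h value lay within the spread of those pairs.

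**Figure D3:**
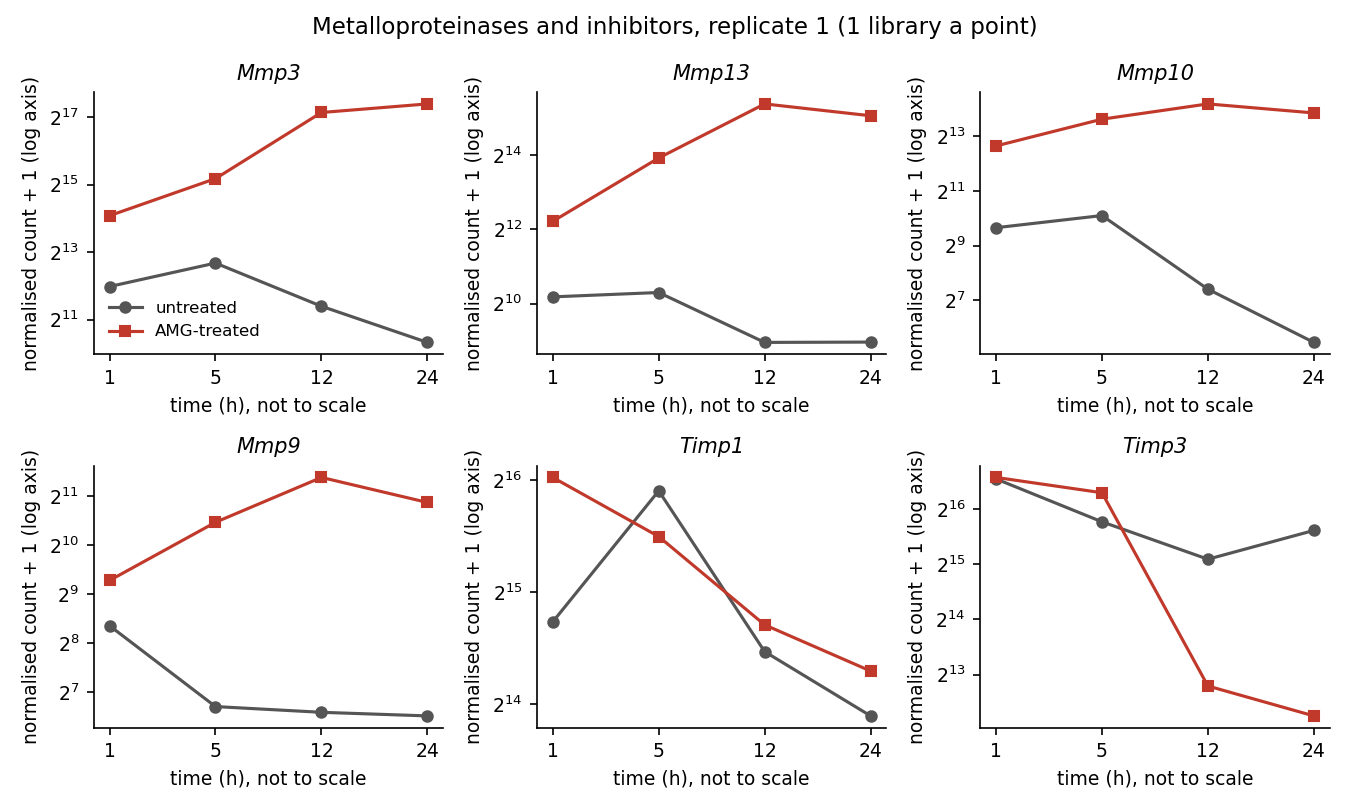
Normalised count plus 1 (log axis) of 4 metalloproteinases and 2 inhibitors at 1, 5, 12 and 24 h in replicate 1, untreated and AMG-treated, 1 library a point. At 12 h the treated points lie above the untreated ones for the 4 metalloproteinases, and Timp3 is at 34862 untreated and 7097 treated.

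Many of these genes are neighbours. Between 7272514 and 7699585 on chromosome 9 (mm10), a span of 427.1 kb, lie 10 metalloproteinase genes of the list. Of these, 6 were tested and 6 were higher past 2-fold, namely Mmp13, Mmp12, Mmp1b, Mmp3, Mmp1a and Mmp10, and Mmp8, Mmp27, Mmp20 and Mmp7 had 0 reads in both libraries. Mmp1b and Mmp1a were under 10 untreated and entered through the treated library, so for them the limit itself required a higher treated value. Across all genes tested, 5.95% were higher past 2-fold. Mmp12, the macrophage elastase, was at 13.2 and 200.1 counts, Mmp1b at 2.93 and 386 and Mmp1a at 2.20 and 176. Mmp12 and Mmp1b overlap on opposite strands and Mmp1a and Mmp1b are related copies, so their reads cannot be assigned with certainty. Mmp1a had 3 untreated reads and was 80.3-fold higher (27.1 to 393).

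Metalloproteinases outside the inducible list differed far less. Mmp2, gelatinase A, was at 8696 and 7969 counts, and Mmp14, the membrane enzyme that activates it, at 11343 and 12753. Mmp19, Mmp23 and Mmp28 differed by -0.55, -0.89 and -0.55. Mmp11, which was listed with the stromelysins and so counts among the inducible metalloproteinases, differed by -0.50 and was the 1 of 8 tested members of that list not past 2-fold. Of the membrane-type enzymes, Mmp17 was lower past 2-fold at 335 and 147, and Mmp24 was higher past 2-fold at 5.85 and 18.1, on 8 untreated reads.

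The inhibitors parted from each other. Timp3, which is held in the matrix, was at 34862 and 7097 counts, 4.91-fold lower (4.79 to 5.03). Timp1 was at 22625 and 26702 and Timp2 at 40694 and 40058, so that neither passed 2-fold. Over time Timp3 was at 95530.0, 55757, 34862 and 50031 untreated and 97330.4, 80309.9, 7097 and 4876 treated, and its log2 ratio in the 3 pairs at 5 h was -0.30, 0.20 and -0.31. The lower level of Timp3 in the treated library was thus seen at 12 and 24 h. Timp3 overlaps Syn3 on the opposite strand. The membrane-anchored inhibitor Reck differed by -0.65.

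Of 11 tested ADAMTS genes, 2 were higher and 1 lower past 2-fold. Adamts14, which trims procollagen, was at 405 and 1729 counts, Adamts7 at 487 and 1700.1 and the aggrecanase Adamts5 at 3327 and 1430.4. In the plasminogen system, whose product plasmin can activate metalloproteinases, Plau (urokinase) had 1240.4 and 10685, 8.61-fold higher (8.18 to 9.07). Its receptor Plaur was at 2413 and 6088 and the inhibitor Serpinb2 at 449 and 8505. These 3 were the members of the system past 2-fold, and tissue plasminogen activator Plat was at 3964 and 3608.

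Cell cycle genes differed by phase. Genes of G2 and mitosis were below 0 in 70 of 75 cases, 18 of them past 2-fold, and 0 were higher past 2-fold, with a median of -0.77. Over all genes tested, the median was -0.01 and 6.63% were lower past 2-fold. Pbk, a mitotic kinase, had 55.6 and 16.2 counts, 3.43-fold lower (2.01 to 6.20). Troap, which is needed for the spindle, had 32.9 and 9.53, and Cdc25c, a phosphatase that starts mitosis, had 42.4 and 14.3. Ccnb2 (cyclin B2) had 162 and 64.8, 2.51-fold lower (1.90 to 3.34), and the proliferation marker Mki67 had 141 and 59.1, 2.38-fold lower (1.78 to 3.22). Ccnb1, Cdk1 and Top2a lay closer, with log2 ratios of -0.52, -0.38 and -0.79.

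The summed level of the 75 genes was 11257, 15581, 13754 and 17485 in the untreated libraries at 1, 5, 12 and 24 h and 12464, 12287, 9519 and 15304 in the treated ones. For 30 of the 75 the treated library at 12 h was the lowest of the 8, a place it took for 9.30% of all genes tested. The list median in the 3 pairs at 5 h was -0.61, -0.36 and -0.53, below 0 in 3 of 3 pairs, and in replicate 1 at 24 h it was -0.26.

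The promoter of Mki67 is shown as an example of the CHR element, through which genes of late phases are kept down outside them. Capitals mark TTTGAA, searched on either strand (RefSeq, GRCm38.p6, 5′ to 3′ on the gene's strand).
Mki67, chr7:135716433-135716512, minus strand: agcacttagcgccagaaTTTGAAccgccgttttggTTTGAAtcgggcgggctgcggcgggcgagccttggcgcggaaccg
It held 2 matches. The letters were found in 25 of 60 G2 and mitosis genes with an entry (41.7%) and in 6 of 47 S phase genes (12.8%). They were found in 12.5% of tested genes and in 18.3% of all promoters. Among genes past 2-fold their share was 15.4% of the lower and 15.9% of the higher ones.

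Genes of DNA replication and S phase showed no shift of that size. All 60 were tested, 27 above 0 and 33 below, with a median of -0.10. The 5 lower past 2-fold were Clspn, Exo1, Mcm10, Rrm1 and Rad51ap1, among them Rrm1, the large subunit of ribonucleotide reductase, at 2689 and 1296 counts, and the checkpoint adaptor Clspn at 71.0 and 24.8. Gins1, of the replicative helicase, was the 1 gene higher past 2-fold, at 8.78 and 23.8, and passed the limit through its treated library. Over all genes tested, 6.63% were lower and 5.95% higher past 2-fold, so these counts are not read as a result about S phase. Mcm2 was at 431 and 628 and Pcna at 675 and 629.9. In the 3 pairs at 5 h the list median was -0.47, -0.44 and -0.53, lower in each than at 12 h.

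Genes of G1 had a median of -0.16 over 16. Cyclin D1 (Ccnd1) was at 9755 and 7211 counts, and Cdk6, at 27.8 and 87.7, was the 1 gene past 2-fold. Among 24 CDK inhibitors and p53 targets, Plk2 was higher at 2976 and 10961, and the growth arrest gene Gadd45g (2694 and 576) and Cdkn2d (254 and 123) were lower past 2-fold. The counts of both lists lie near the shares over all genes tested, 5.95% higher and 6.63% lower. Cdkn1a, which encodes p21, was at 16242 and 17517.

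The matrix programme leaned lower, with exceptions in each direction. Counts in its lists stand beside 5.95% higher and 6.63% lower past 2-fold over all genes tested. The median over all those genes was -0.01. Among 11 fibrillar collagen genes the median was -0.40. Col1a1, a chain of collagen I, had 134964 and 68843 counts, 1.96-fold lower (1.94 to 1.98), and Col1a2 had 55942 and 31986. Col3a1 was at 37296 and 43048. Col5a3 was the 1 gene higher past 2-fold, at 5393 and 20205, and the cartilage collagen Col2a1 the 1 lower, at 1166 and 337. The list median in the 3 pairs at 5 h was -0.74, -0.26 and -0.57, and in replicate 1 it was 0.71 at 5 h, on the other side of 0.

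Elastic fibre and microfibril genes were below 0 in 13 of 16 tested, with a median of -0.41. Eln (chromosome 5, 134702593 to 134747323), which encodes tropoelastin, had the largest difference of the matrix programme. It was at 105, 123, 154 and 128 counts in the untreated libraries at 1, 5, 12 and 24 h and at 66.1, 43.3, 3.81 and 0 in the treated ones. At 12 h it was 40.3-fold lower (15.5 to 149), on 4 treated reads. Fbn2 was at 203 and 92.4, and Fbn1, the main microfibril protein, at 27373 and 21619.

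Basement membrane genes split evenly, 10 above and 10 below 0, with 5 higher and 2 lower past 2-fold. Nid1, which joins laminin to collagen IV, was at 20465 and 54617 counts, while its relative Nid2 was at 1451 and 618. The proteoglycan Agrn was at 524 and 1299.9, the laminin chain Lamc3 at 22.7 and 56.2 and Col4a6 at 174 and 82.0. Of the other collagens, the transmembrane collagen Col23a1 had 102 and 969, 9.53-fold higher (7.97 to 11.5), and Col8a2 (20.5 and 4.76) and Col28a1 (34.4 and 16.2) were lower past 2-fold. Collagen processing enzymes were below 0 in 15 of 20 cases. Loxl4 passed 2-fold lower at 965 and 449, and lysyl oxidase (Lox) was at 83468 and 49138.

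Small leucine-rich proteoglycans had a median of -0.76 over 9 tested genes. Ogn was at 1349 and 469 counts and Prelp at 5841 and 2794, both lower past 2-fold, while decorin (Dcn), which binds collagen fibrils, was higher at 749 and 1626. Of 20 matricellular genes, Wisp2 (21975 and 5127), Cilp (12218 and 4483) and the YAP target Ctgf (31659 and 14027) were lower past 2-fold, and tenascin C (Tnc, 35919.9 and 82571) and osteopontin (Spp1, 19072 and 39232) were higher. Fibronectin (Fn1) was at 82605 and 64346. In hyaluronan turnover, Cemip, which takes part in its breakdown, had 8186 and 36902, 4.51-fold higher (4.41 to 4.60). Hyal1 (197 and 82.9), Hapln1 (71.7 and 32.4) and Tnfaip6 (25.6 and 11.4) were lower past 2-fold, and the synthase Has2 was at 1488 and 2393.

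Contractile genes and targets of SRF and YAP were below 0 in 22 of 22 cases, 10 of them past 2-fold, with a median of -0.93. Over all genes tested, the median was -0.01 and 6.63% were lower past 2-fold. Acta2, smooth muscle actin and the mark of myofibroblasts, had 84107 and 37413 counts, 2.25-fold lower (2.22 to 2.27). Mylk, myosin light chain kinase, had 2361 and 238, 9.91-fold lower (8.71 to 11.3). The actin-binding genes Lmod1 and Cnn1 were at 2383 and 447 and at 11205 and 3182. Over the 4 times Acta2 was at 122294, 113295, 84107 and 62221 untreated and 127602, 99878, 37413 and 15379.6 treated. Its level was lower at 12 h than at 5 h in both groups, and more so in the treated one. The list median was 0.01 in replicate 1 at 5 h and -0.24, -0.23 and -0.06 in the 3 pairs at 5 h. The study's reference genes also lay below 0, with Gapdh at 14372 and 12596, Rpl13a at 17888 and 14641 and Actb at 58844 and 38134.

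**Figure D4:**
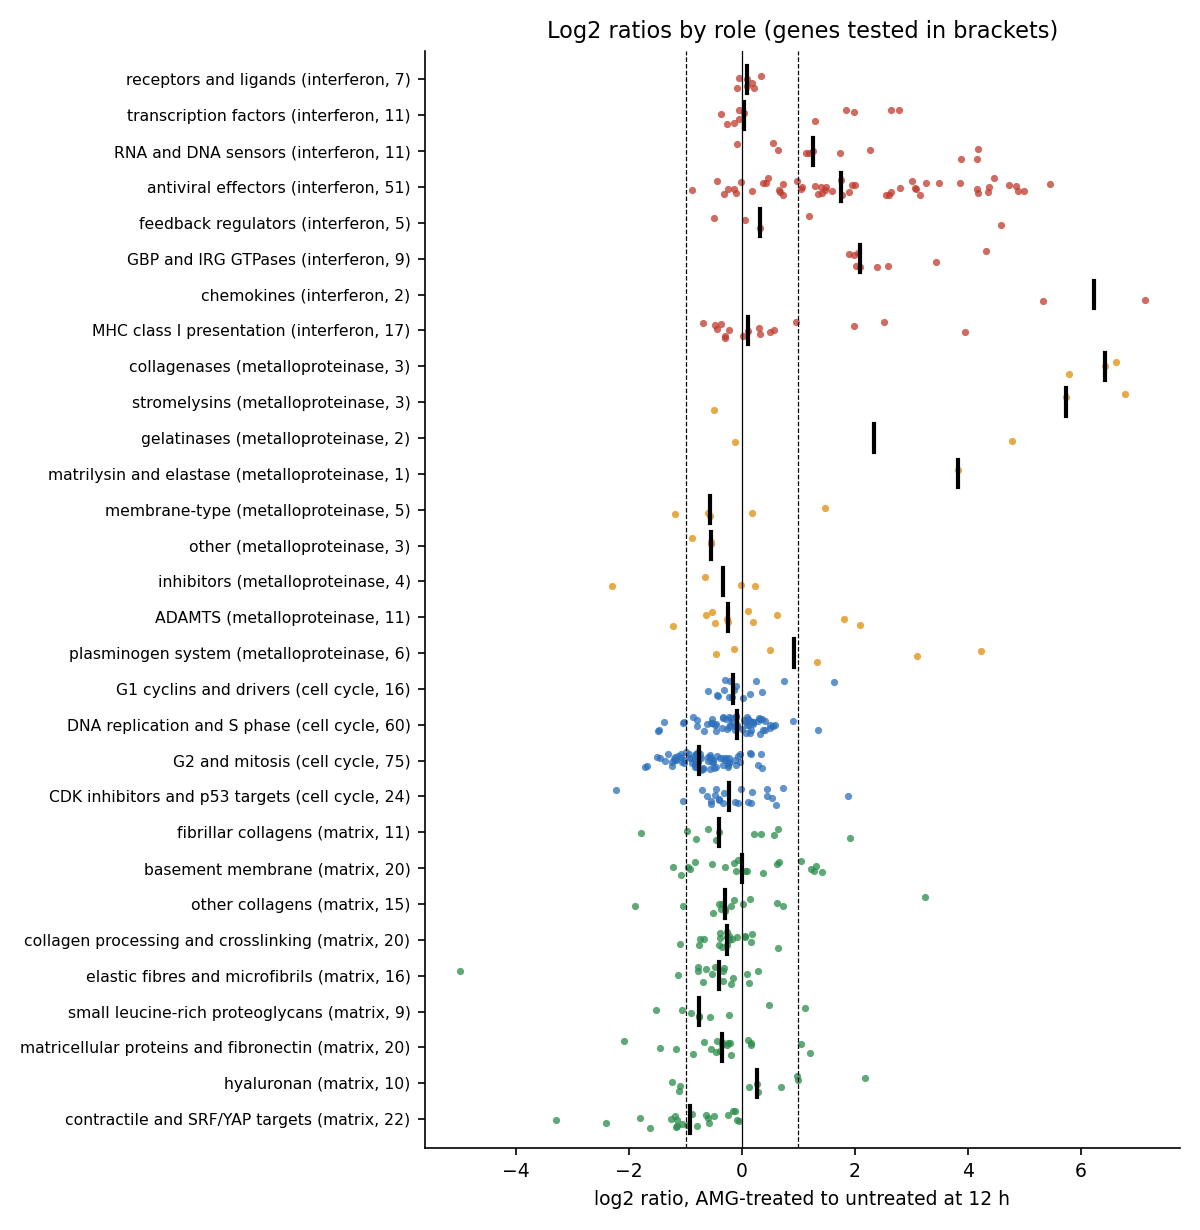
Log2 ratio of AMG-treated to untreated at 12 h of each tested gene (horizontal axis), grouped by role, with the median of each role as a bar and 2-fold as dashed lines. The 22 contractile genes lie below 0 and the 9 GBP and IRG genes lie past 2-fold higher.

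Across the transcriptome, the 12 genes with the highest log2 ratios were cytokine genes, metalloproteinases, Nos2 and a pseudogene. Ccl20, a chemokine for dendritic cells and T cells, had 3.66 and 1221 counts, 334-fold higher (143 to 1029). Il1a, an alarm cytokine, had 1 untreated read and 397 treated counts, 543-fold higher (96.9 to 21499). Cxcl2, a neutrophil attractant, was at 7.32 and 1279.8, inducible nitric oxide synthase Nos2 at 5.85 and 935 and the cytokine Il6 at 9.51 and 740.5. Gm15242, annotated as a processed pseudogene, had 1 untreated read and 99.1 treated counts and overlaps Ppef1 on the same strand. Ccl5, Mmp10, Mmp1b, Mmp13, Mmp1a and Mmp3 complete the 12. All but Mmp10, Mmp13 and Mmp3 were under 10 counts in the untreated library and entered through the treated one. All 12 had log2 ratios above 0 in replicate 1 at 1, 5 and 24 h and in the 3 pairs at 5 h. The share of all tested genes that did so was not computed.

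The 12 genes with the lowest log2 ratios were of low abundance, and Lgr5 was the only one above 200 counts in the untreated library. All 12 were under 10 counts in the treated library and entered through the untreated one. Lgr5, a receptor that enhances Wnt signals, had 236 and 3.81, 61.8-fold lower (23.9 to 228), and its log2 ratio in the 3 pairs at 5 h was -3.66, -3.70 and -3.99. Hpgd, which degrades prostaglandins, had 168 and 8.58, 19.5-fold lower (10.1 to 43.3). The glutamate transporter Slc1a3 had 98.8 and 2.86. Both Lgr5 and Hpgd were also lower in each of the pairs at 5 h. Atp12a, Kcns1 and Eln rested on 1, 1 and 4 treated reads. The germ cell helicase Ddx4 had 0 treated reads and was at least 22.8-fold lower, and Lrrtm4, Speer7-ps1, Slc44a3, Sv2c and Edn2 also had 0 treated reads, against 35.1, 27.1, 23.4, 21.2 and 20.5 untreated counts. Of the 12, Lgr5, Atp12a and Kcns1 had log2 ratios below 0 in replicate 1 at 1, 5 and 24 h and in each of the 3 pairs at 5 h, and the other 9 did not. The log2 ratio of Slc44a3 was 3.13 in replicate 1 at 5 h, and that of Ddx4 was 1.84 at 1 h.

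Outside the 4 programmes, chemokines and cytokines were higher past 2-fold in 16 of 23 tested genes, 4 of the 23 being under 10 in the untreated library, and lower in 3, with a median of 2.27. For this and the lists below, the shares over all genes tested were 5.95% higher and 6.63% lower past 2-fold. The 3 lower ones, chosen after their values were seen, were Cxcl14 (17083 and 3508 counts), Cxcl12 (928 and 343) and Il1rn (69.5 and 22.9), the interleukin 1 receptor antagonist. NF-kB factors and feedback genes were higher past 2-fold in 8 of 14, led by Nfkbiz (432 and 4789), Zc3h12a (307 and 2833) and the inhibitor Nfkbia (438 and 3043). The letters GGGA, any 4 bases, CC, a loose NF-kB site, were found in 7 of 12 NF-kB genes with a promoter entry and in 26.7% of tested genes. NRF2 and haem genes were higher past 2-fold in 13 of 22, led by the iron exporter Slc40a1 (11.7 and 181), the cystine transporter Slc7a11 (58.5 and 579) and haem oxygenase Hmox1 (2867 and 20624). Of those 22, 2 were under 10 in the untreated library and entered through the treated one. Of 5 metallothionein and zinc transporter genes, Mt2 (330.0 and 2532) and Mt1 (375 and 1076) were higher past 2-fold. In the AP-1 family Fosl1 was at 1297 and 3404 and Fos at 129.5 and 56.2. The angiogenic factor Vegfa (1933 and 5862), Egln3 and Ankrd37 were the 3 of 25 glycolysis and hypoxia genes past 2-fold higher, while 0 of 16 unfolded protein response genes and 0 of 10 heat shock chaperones passed 2-fold.

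Cholesterol synthesis genes were below 0 in 22 of 22 cases and lower past 2-fold in 17, with a median of -1.23. Over all genes tested, the median was -0.01 and 6.63% were lower past 2-fold. Idi1, an isomerase of the isoprenoid pathway, had 884 and 144 counts, 6.14-fold lower (5.18 to 7.32). Insig1, which retains the sterol sensor, had 1276 and 258 and the sterol demethylase Cyp51 1587 and 343. Over the 4 times Idi1 was at 4315, 4194, 884 and 1068 untreated and 9803, 3105, 144 and 221 treated. The list median was 0.26 (1 h), -0.02 (5 h) and -1.10 (24 h) in replicate 1, and -0.49, -0.07 and -0.27 in the 3 pairs at 5 h. For 17 of the 22 genes the treated library at 12 h was the lowest of the 8.

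**Figure D5:**
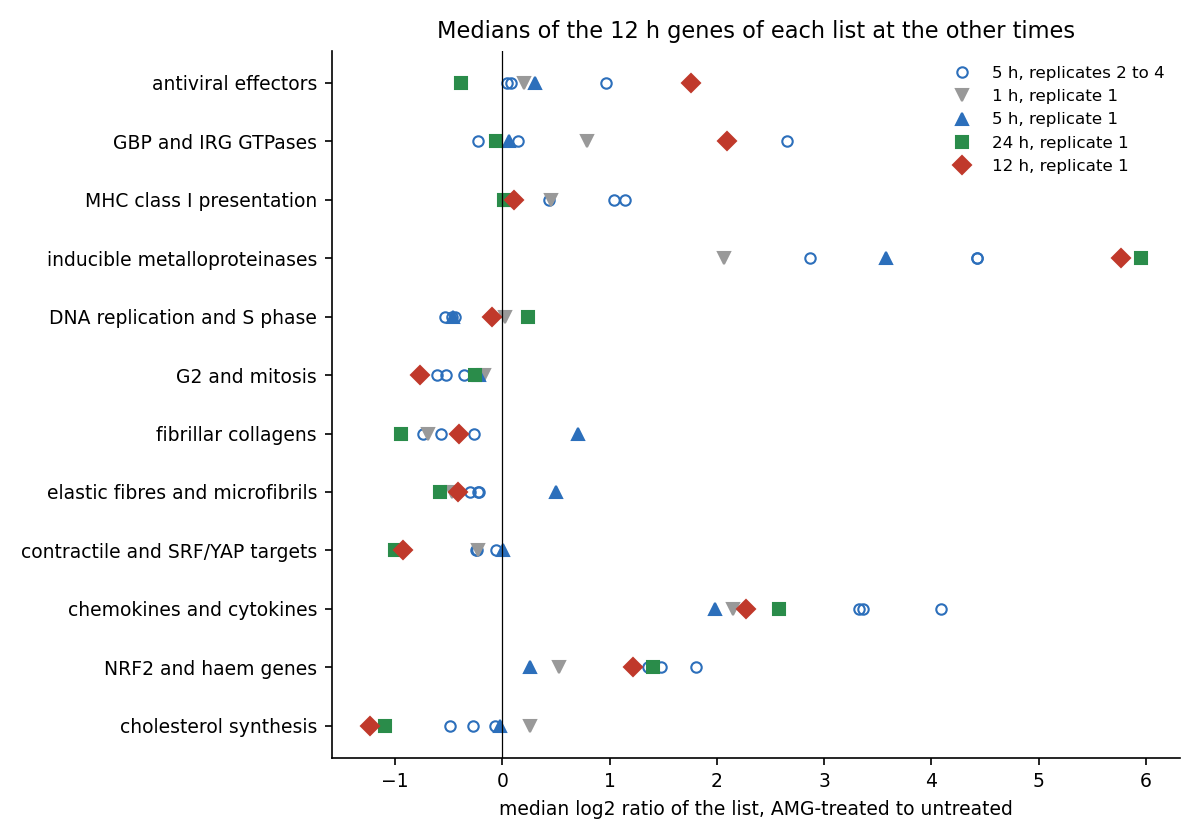
Median log2 ratio of 12 gene lists (horizontal axis), with 12 h as diamonds, the other times of replicate 1 as filled symbols and the 3 pairs of replicates 2 to 4 at 5 h as open circles. The antiviral effectors are at 1.76 at 12 h and -0.39 at 24 h, and the inducible metalloproteinases lie above 0 throughout.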

How the data were processed

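RNA from primary fibroblasts was sequenced as stranded poly(A) libraries. The submitters' processing notes name FastQC 0.11.5, TopHat2 2.0.13, SAMtools 0.1.19.24, HTSeq 0.5.3p3, DESeq and build mm10, and the strand setting of the counting and the annotation release were not given in the sources used here. The deposited values are a signal, the count of reads per gene divided by a size factor by the authors, in 1 table of 8 libraries (replicate 1) and 1 of 6 (replicates 2 to 4 at 5 h), which were normalised separately. Each library's values were whole multiples of the value of 1 read within a tolerance of 0.1 read, and reads were recovered from them. Totals in the table of replicate 1 ran from 13818438 to 27410213 reads, and the floor of 3 reads was 2.20 normalised counts in the untreated and 2.86 in the treated library at 12 h.

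The log2 ratio was taken with a pseudocount of 1 over genes with a mean of at least 10. No test was made, because 12 h has 1 library a side, and a count test on the recovered reads was not made for the same reason. Folds are ratios of normalised counts without the pseudocount, with exact counting intervals at 95%, and against a library at 0 they are bounds at the floor. Members and gene lists were chosen with earlier results of these data known. In each role the text names members with the 3 largest differences past 2-fold in each direction and members of defining function, across all genes the 12 highest and 12 lowest, and from other lists up to 3. Of 772 listed symbols, 4 were not found in the table (Ifit3b, Ifit1bl1, Gbp2b and Gbp10). Positions and overlaps came from GENCODE mouse annotation on mm10, and promoters from RefSeq on GRCm38.p6, where 9833 of the 13370 tested genes had an entry. Alternatives covered the pseudocount, the limit on low values, 2 other scalings and a correction for gene length. The scripts, checked on simulated data, ran in Python 3.11.15 with pandas 2.3.3 and SciPy 1.17.1.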

Additional observations from a re-analysis of the deposited data

Results flagged for a closer look

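In replicate 1, the median difference between treated and untreated libraries lay on opposite sides of 0 at 12 h and 24 h for several gene lists. The median log2 ratio of the antiviral effectors was 1.76 at 12 h and -0.39 at 24 h. That of the GBP and IRG GTPases was 2.09 at 12 h and -0.06 at 24 h. That of the DNA replication and S phase genes was -0.10 at 12 h and 0.24 at 24 h. The same held for the RNA and DNA sensors (1.26 and -0.49), the feedback regulators (0.32 and -0.41), the interferon transcription factors (0.04 and -0.27), the hyaluronan genes (0.27 and -0.19), the G1 genes (-0.16 and 0.11) and the study's 3 reference genes (-0.29 and 0.46). Each time has 1 library a side, so the difference between times was not tested.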

How the results depend on the processing

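The alternatives were applied to the numbers of genes past 2-fold, to some list medians and to 222 genes past 2-fold. The lists were antiviral effectors, GBP and IRG GTPases, class I presentation, inducible metalloproteinases, S phase, G2 and mitosis, fibrillar collagens, elastic fibres and contractile genes. None of these medians or genes changed sign under any alternative. For a single gene, a change of pseudocount or of the limit on low values cannot change the sign. The 222 genes were chosen past 2-fold, and the scalings and the length correction left the median over all genes between -0.0505 and -0.0010. A change of sign was thus unlikely from the start. Of the 222, 187 were present at a mean of at least 50 and 197 at an untreated count of at least 10. Medians of the other lists were not recomputed. The numbers of genes higher past 2-fold and genes lower past 2-fold moved with the limit on low values, to 1947 and 2446 among all genes above 0 in either library and to 519 and 508 at a mean of at least 50. A limit on the untreated library alone, chosen after seeing the data, gave 592 higher and 1061 lower. The inducible metalloproteinases median log2 ratio was 4.80 with a pseudocount of 10 in place of 5.77. The elastic fibres and microfibrils median log2 ratio was -0.34 over all genes above 0 and -0.47 with the length correction, in place of -0.41. Of the 222 genes past 2-fold, 14 were no longer past it with a pseudocount of 10 and 3 with upper quartile rescaling. The number was 1 with scaling to totals and 4 of 217 with the length correction. Leaving out a replicate was not possible with 1 library a side. No paired analysis was possible because the groups at 12 h share only 1 replicate number and the results come from no test.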
